A study of Mus musculus with 12 samples.

Results

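The accessibility of 9 genes that mark and arm iNKT17 cells was examined in thymic invariant natural killer T (iNKT) cells by Omni-ATAC-seq, in which a transposase inserts adapters into open chromatin and the insertions are counted. The genes were Il17a, Il17f, Il23r, Il1r1, Il17re, Blk, Sdc1, Tmem176a and Tmem176b. Every region of the deposited table that overlapped 1 of their gene bodies (GENCODE vM21, mouse build mm10), extended by 10 kb on either side, was taken, whatever its values. This gave 82 of the 63309 regions of the table, each 500 bp long: 24 at Il1r1, 21 at Blk, 14 at Il23r, 10 at Sdc1, 5 at Il17a, 4 at Il17re, 1 at Il17f, 2 at Tmem176a and 3 at Tmem176b, where the 2 regions of Tmem176a were also counted for its neighbour Tmem176b.

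The samples were 12 libraries in 6 groups of 2: the subsets iNKT1, iNKT2 and iNKT17 from C57BL/6 mice and the same subsets from Hivep3-/- mice, a germline knockout on the C57BL/6 background of a zinc finger transcription factor. All mice were untreated and 8 to 9 weeks old by the labels. By the study's methods, subsets were first sorted from pooled thymi with CD122, ICOS, Izumo1r and CD138. The sorted cells were then pooled for the transposition and sorted again into subsets on ICOS and CD138 alone. The 2 libraries of a group therefore measure the spread between preparations, and subsets may have shared a transposition. CD138 is the product of Sdc1 and in the last sort alone separated iNKT17 from iNKT2 cells, so the Sdc1 locus gives no independent view of iNKT17. The values are log2 normalized insertions per kb. They carry no read depth, so the depth behind a value is unknown. The lowest value of a library lay between -2.58 and -4.31 and differed between libraries, so a region at that value is only listed as lowest.

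iNKT17 cells are innate-like T cells that acquire in the thymus the ability to make interleukin 17 (IL-17), and that release it in response to cytokines. Il17a and Il17f encode the 2 closely related IL-17 cytokines that act on epithelia and stroma to draw in neutrophils. Il23r and Il1r1 encode receptors for IL-23 and IL-1, the cytokines that drive IL-17 release, and Il17re encodes the receptor chain for IL-17C. Blk encodes a Src family kinase best known from B cells, Sdc1 encodes the heparan sulfate proteoglycan syndecan-1 (CD138), and Tmem176a and Tmem176b encode related proteins of intracellular membranes.

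The regions that the comparisons turned on are given as genome sequence of mm10 (GRCm38.p6), on the strand of the gene and without annotated untranslated bases. Capitals mark matches on either strand to AGGTCA, the core site of many nuclear receptors, and a window with no capitals held no match. The first of them are promoter windows of Il17a (chr1:20730589-20730888, plus strand), Il17f (chr1:20784271-20784494, minus strand) and Il23r (chr6:67491856-67492125, minus strand), which were accessible in iNKT17 cells and below the accessible level in the other subsets. The next lies downstream of Il17a (chr1:20740562-20740861, plus strand), where all subsets were accessible to different degrees, and the last in an intron of Blk (chr14:63389039-63389338, minus strand), which was lower in iNKT2 cells of Hivep3-/- mice.
Il17a promoter: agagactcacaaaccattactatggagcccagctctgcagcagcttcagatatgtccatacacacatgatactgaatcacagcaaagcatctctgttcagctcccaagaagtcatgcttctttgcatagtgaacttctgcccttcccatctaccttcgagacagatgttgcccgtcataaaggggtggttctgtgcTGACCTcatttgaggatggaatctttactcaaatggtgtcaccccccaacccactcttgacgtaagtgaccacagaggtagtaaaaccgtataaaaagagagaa
Il17f promoter: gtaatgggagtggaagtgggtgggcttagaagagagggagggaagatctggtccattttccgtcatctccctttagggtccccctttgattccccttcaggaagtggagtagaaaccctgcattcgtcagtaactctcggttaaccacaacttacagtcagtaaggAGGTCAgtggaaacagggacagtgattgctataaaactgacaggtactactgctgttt
Il23r promoter: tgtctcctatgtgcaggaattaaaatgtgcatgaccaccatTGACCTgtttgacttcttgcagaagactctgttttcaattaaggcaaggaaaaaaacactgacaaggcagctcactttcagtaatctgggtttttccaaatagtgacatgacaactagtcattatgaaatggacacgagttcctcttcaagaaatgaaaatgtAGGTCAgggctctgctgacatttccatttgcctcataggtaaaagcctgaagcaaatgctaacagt
Il17a downstream region: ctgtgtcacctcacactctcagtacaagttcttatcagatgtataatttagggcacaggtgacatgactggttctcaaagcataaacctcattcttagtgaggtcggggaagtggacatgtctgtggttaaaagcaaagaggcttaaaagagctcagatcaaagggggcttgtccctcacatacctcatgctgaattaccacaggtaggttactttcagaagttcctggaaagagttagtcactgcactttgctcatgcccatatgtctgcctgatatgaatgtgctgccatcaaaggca
Blk intron: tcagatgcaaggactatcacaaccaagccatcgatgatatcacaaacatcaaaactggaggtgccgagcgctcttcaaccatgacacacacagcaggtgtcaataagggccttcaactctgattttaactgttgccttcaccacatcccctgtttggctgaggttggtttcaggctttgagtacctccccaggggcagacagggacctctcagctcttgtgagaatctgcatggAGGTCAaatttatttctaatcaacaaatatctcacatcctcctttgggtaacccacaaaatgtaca

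The loci were open in iNKT17 cells and largely closed elsewhere. With an accessible region defined as a group mean of at least 5 normalized insertions per kb (2.32 on the log2 scale), 81 of the 82 regions were accessible in C57BL/6 iNKT17 cells against 21 in iNKT1 and 21 in iNKT2 cells. In Hivep3-/- mice the counts were 80 in iNKT17, 21 in iNKT1 and 17 in iNKT2. Over the whole table, 82.3% to 83.2% of regions were accessible in each of the 6 groups. In all, 55 of the 82 regions (67.1%) were accessible in no iNKT1 or iNKT2 group, compared with 5.34% of all regions. A region enters the table because a peak was called in some library, and these 55 regions passed the filter only through iNKT17, so they had to differ there. In bulk populations, fewer cells with an open region and less opening per cell cannot be told apart.

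**Figure D1:**
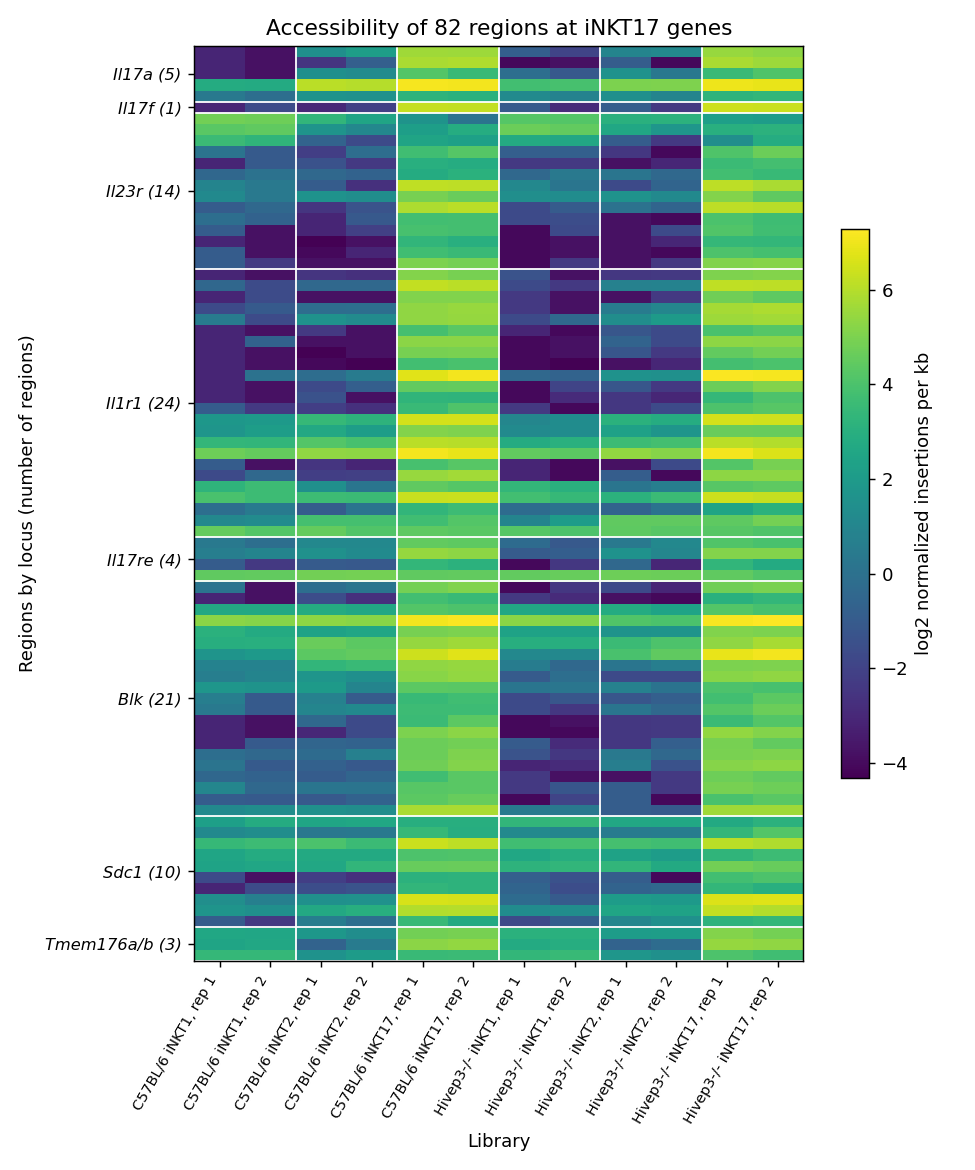
Accessibility (log2 normalized insertions per kb, colour) of the 82 regions (rows, ordered by locus and position, with the number of regions of each locus) in the 12 libraries (columns). The iNKT17 columns of both genotypes are bright over nearly all rows, while iNKT1 and iNKT2 columns are dark except at 21 or fewer accessible regions per group.

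The labels of the sorted populations were checked against promoters of marker genes. The summed linear level of 5 iNKT17 markers was 482 to 523 in C57BL/6 iNKT17 libraries and 366 to 392 in the other C57BL/6 libraries, of which the chemokine receptor gene Ccr6 was at 32.7 and 33.1 in iNKT17 and 0.263 to 0.863 elsewhere. For 5 iNKT1 markers the sum was 964 to 976 in C57BL/6 iNKT1 libraries and 511 to 633 in iNKT2 and iNKT17 libraries, although Il2rb, which encodes the gating marker CD122 of iNKT1 cells, was highest in iNKT17 (575 and 592 against 461 and 499 in iNKT1). The 5 iNKT2 markers summed to 598 to 652 in C57BL/6 iNKT2, 501 to 539 in iNKT1 and 368 to 386 in iNKT17 libraries, but 2 of them did not single out iNKT2. Il17rb, the receptor gene for IL-25, was highest in iNKT17 (44.9 and 44.7 against 36.9 and 38.8 in iNKT2). Gata3, a regulator of type 2 programmes, was at 296 and 264 in iNKT2 and 289 and 260 in iNKT1. Izumo1r, which encodes a sorting gate, was at 173 in both iNKT2 libraries, 111 and 113 in iNKT1 and 23.8 in both iNKT17 libraries. The sums of this list include it, so they are not independent of the sort. In Hivep3-/- mice each list was again highest in its own subset: the iNKT17 list at 480 to 489 against 336 to 383, the iNKT1 list at 965 to 968 against 483 to 602, and the iNKT2 list at 562 to 570 against 356 to 445. Because Blk and Sdc1 are also genes of B and plasma cells, markers of other cell types were read as well. Of 5 B cell genes only Pax5 had a promoter region, at 20.4 to 22.9 in C57BL/6 iNKT17 and 21.2 to 22.8 in iNKT2 libraries, and 7.11 and 8.01 in iNKT1. Both plasma cell genes and all 4 genes of double-positive thymocytes had 0 promoter regions in the table, and of 5 myeloid genes only Spi1 had one, lower in iNKT17 (17.4 and 18.9) than in the other C57BL/6 libraries (27.9 to 40.3). At the Hivep3 locus 21 regions were in the table, of which 20, 18 and 12 were tested between genotypes in iNKT1, iNKT2 and iNKT17. With limma 0 were called in any subset, against 1.15%, 1.68% and 0.271% of all regions tested. The numbers at an unadjusted p under 0.05 were 5, 3 and 5, against 17.8%, 25.3% and 15.8% of all regions tested. An accessibility table does not show whether the gene was deleted.

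Differences between subsets were tested with limma over all regions, with a call at a Benjamini-Hochberg adjusted p below 0.1 and at least 3-fold. In C57BL/6 mice, iNKT17 cells differed from iNKT1 cells at 74 of the 82 regions, of which 72 were higher and 2 lower, while 20.5% of the 59317 regions tested were called (10.8% higher, 9.72% lower). The median difference over the 82 regions was 4.62 on the log2 scale against -0.01 over all regions tested, and 4.41 without the 13 regions at the lowest value in both iNKT1 libraries. Against iNKT2 cells, 72 regions were called, 71 higher and 1 lower, against 16.2% of 58866 regions (8.49% higher, 7.72% lower), with a median difference of 4.05. The comparisons with iNKT1 and with iNKT2 share the iNKT17 libraries. In Hivep3-/- mice, 71 regions were higher and 1 lower in iNKT17 than in iNKT1 (19.3% of all regions called, 9.83% higher and 9.48% lower), and 73 were higher and 0 lower than in iNKT2 (15.6% called, 8.25% higher and 7.33% lower). Of the regions higher than in iNKT1, 71 were called in both genotypes, which was 98.6% of the C57BL/6 list and 100% of the Hivep3-/- list. Of those higher than in iNKT2, 70 were shared, 98.6% and 95.9% of the lists. Much of this overlap was fixed beforehand, because 55 of the 82 regions were tested only through iNKT17 and had to be higher there in both genotypes. Among the 27 regions that were accessible in an iNKT1 or iNKT2 group, and so did not depend on iNKT17 to be tested in at least 1 of these comparisons, the numbers were smaller. In C57BL/6 mice 17 of them were higher and 2 lower in iNKT17 than in iNKT1, with a median difference of 2.26, and 17 were higher and 1 lower than in iNKT2, with a median of 1.87. The Hivep3-/- mice had 16 higher and 1 lower than in iNKT1, and 18 of 26 tested higher and 0 lower than in iNKT2, with medians of 2.20 and 2.22. These counts describe the regions and carry no test of their own. Where the other subset of a comparison was below the accessible level at a region, that region was tested only through iNKT17 and had to be higher there. Adjusted p-values given below for such regions describe the size of the gap and are no support for its direction.

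**Figure D2:**
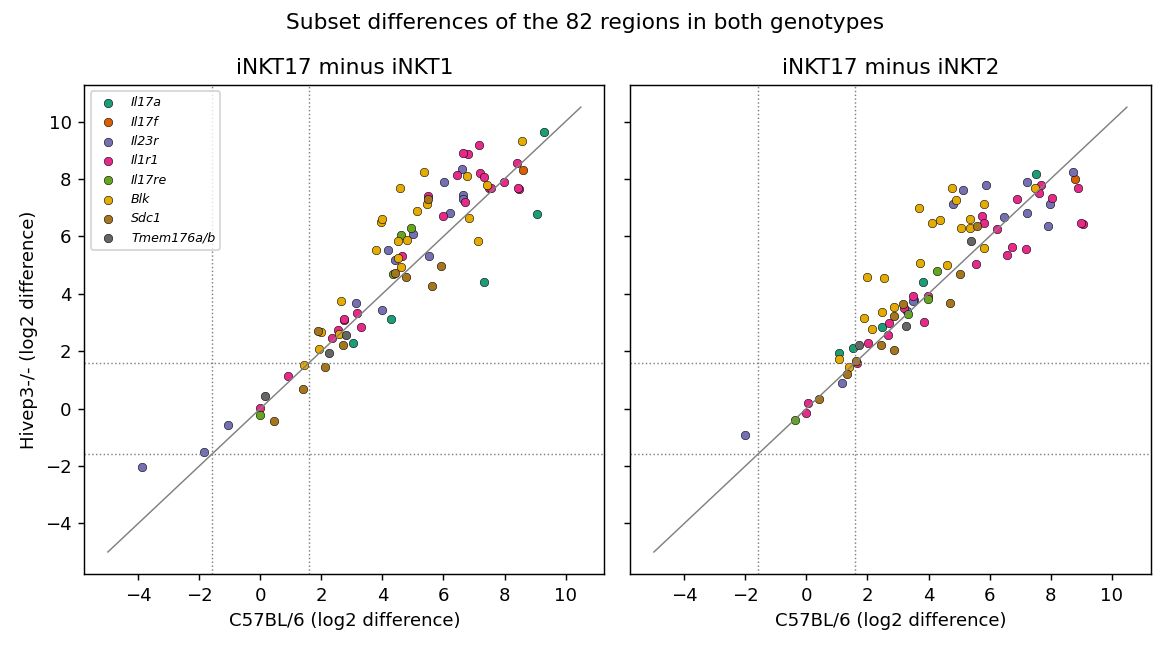
Fitted log2 difference of each of the 82 regions in C57BL/6 (horizontal) and Hivep3-/- mice (vertical), for iNKT17 minus iNKT1 (left) and iNKT17 minus iNKT2 (right); colours mark loci, dotted lines 3-fold and the solid line equality. Most points lie above 3-fold in both genotypes, with 71 and 70 regions called higher in both. At 18 (left) and 13 (right) of the 82 regions the genotypes departed from equality by at least 3-fold. The interaction was called at 4 and 3 of these regions, against 1.42% and 1.02% of all regions tested. The share of all regions past 3-fold was not computed, so the counts of 18 and 13 have no background.

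The locus level, the log2 of the mean linear value over the regions of a locus, shows how far the genes differed. It was 5.76 and 5.72 at Il17a in the C57BL/6 iNKT17 libraries, 3.94 and 3.88 in iNKT2 and 0.79 and 0.69 in iNKT1, so the subsets fell into 3 separate levels. At Il17f, with a single region, it was 6.24 and 6.22 in iNKT17 and between -3.12 and -1.65 in the 4 other C57BL/6 libraries. Il23r stood at 4.36 and 4.35 in iNKT17, 2.30 and 2.20 in iNKT1 and 0.47 and -0.03 in iNKT2, the reverse order of the lower subsets at Il17a. This order rests on few regions. In C57BL/6 mice 3 of the 14 Il23r regions were accessible in iNKT1, all toward or beyond the 3′ end. At Il17a 1 of the 5 regions was accessible in iNKT2, downstream of the gene. The level at Il1r1 was 5.40 and 5.44 in iNKT17 against 1.95 to 2.52 in the others, and at Blk 5.07 and 5.26 against 1.84 to 2.60. The smallest gap in C57BL/6 mice was at Il17re, with 4.62 and 4.53 in iNKT17 and 2.66 to 3.09 elsewhere. That level includes a region near the neighbour Il17rc that was not called between subsets, while the 3 promoter regions of Il17re differed 10.1-fold to 30.5-fold. At every locus both iNKT17 libraries of a genotype lay above the 4 other libraries of that genotype.

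**Figure D3:**
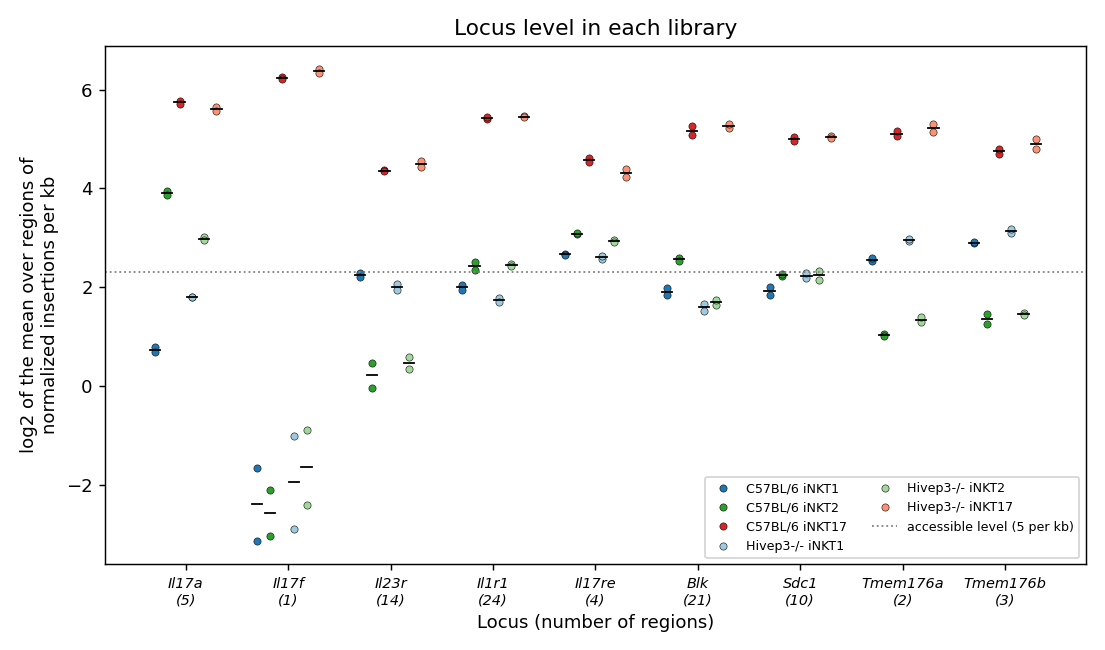
Locus level (log2 of the mean normalized insertions per kb over the regions of a locus) at the 9 genes; each point is a library, the short bar the mean of the 2 libraries of a group, and the dotted line the accessible level of 5 per kb. iNKT17 libraries lie highest at every locus, Il17a is higher in iNKT2 than iNKT1, and Il23r, Tmem176a and Tmem176b are higher in iNKT1 than iNKT2.

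The regions of Il17a differed in how they separated the subsets. Its promoter region (chr1:20730489-20730988) had values of 5.80 and 5.91 in iNKT17 libraries of C57BL/6 mice, and of 5.83 and 5.59 in those of Hivep3-/- mice. In iNKT2 cells C57BL/6 libraries were at -2.52 and -0.78, Hivep3-/- libraries at -0.88 and -4.05, and both C57BL/6 iNKT1 libraries were at their lowest value. The difference from iNKT2 was 7.51 (SE 0.88, adjusted p = 1.23e-05) in C57BL/6 and 8.18 (SE 0.88, adjusted p = 6.53e-06) in Hivep3-/- mice. Tested only through iNKT17, this promoter region had to be higher there. A region 9557 bp past the start (chr1:20740462-20740961), intergenic and the highest of the locus, was graded instead. It was 7.11 and 7.08 in C57BL/6 iNKT17, 6.09 and 5.98 in iNKT2, and 2.81 and 2.80 in iNKT1. There iNKT17 exceeded iNKT1 19.6-fold (adjusted p = 1.05e-10) but iNKT2 only 2.09-fold, a difference of 1.06 (SE 0.11, adjusted p = 3.36e-06) that stayed under the 3-fold limit. The remaining 3 regions, intergenic as well and in part chosen after their values were seen, followed the same order of subsets in C57BL/6 mice. The region upstream of the gene (chr1:20725552-20726051) read 5.63 and 5.58 in iNKT17, 1.44 and 2.13 in iNKT2, and the lowest value in both iNKT1 libraries.

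Il17f had 1 region, over an annotated start (chr1:20784117-20784616). The iNKT17 libraries read 6.24 and 6.22 (C57BL/6) and 6.40 and 6.34 (Hivep3-/-), and the region lay between -3.12 and -0.88 in the 8 others, so the iNKT17 libraries stood apart from the rest. The difference from C57BL/6 iNKT1 was 8.61 and from iNKT2 8.79 (SE 0.71, adjusted p = 3.35e-07 and 5.03e-07). Being below the accessible level in all iNKT1 and iNKT2 groups, the region was tested only through iNKT17 and had to be higher there. The Il17f values in iNKT1 and iNKT2 overlapped in both genotypes, whereas those of the Il17a promoter region overlapped in Hivep3-/- mice only.

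At Il23r the 5′ and 3′ ends behaved differently. The region over the start (chr6:67491626-67492125) read 5.01 and 4.86 in iNKT17 cells of C57BL/6 mice and 5.10 and 5.18 in those of the knockout, while all 8 other libraries were at -0.94 or below. It differed from iNKT2 by 8.72 in C57BL/6 and 8.23 in Hivep3-/- mice (SE 0.76, adjusted p = 1.02e-06 and 1.82e-06). As it was tested only through iNKT17, it had to be higher there. A pair of further promoter regions (chr6:67490452-67490951 and chr6:67491041-67491540) had the same pattern, with 3.02 to 4.05 in the 4 iNKT17 libraries and -0.94 or below elsewhere. The highest region of the locus, in an intron (chr6:67475579-67476078), read 6.20 and 6.12 in iNKT17, 0.92 and 0.36 in iNKT1 and -0.92 and -2.69 in iNKT2 of C57BL/6 mice. A second intronic region (chr6:67482989-67483488) reached 5.88 and 6.07 in iNKT17 and at most -0.41 in the other C57BL/6 libraries. Toward the 3′ end the order turned. A region beyond the gene (chr6:67415214-67415713), within 1000 bp of the start of the predicted gene Gm4761, read 4.80 and 4.72 in C57BL/6 iNKT1, 3.33 and 2.47 in iNKT2 and 1.66 and 0.10 in iNKT17. It was lower in iNKT17 than in iNKT1 by 3.88 (SE 0.40, adjusted p = 2.51e-06) and than in iNKT2 by 2.02 (adjusted p = 8.91e-04), although the call against iNKT2 was lost without the C57BL/6 iNKT17 replicate 2, where the difference was -1.24. In Hivep3-/- mice it was lower than in iNKT1 by 2.04 (adjusted p = 6.90e-04). An intronic region near this end (chr6:67424762-67425261) read 4.30 and 4.47 in iNKT1, 1.69 and 1.04 in iNKT2 and 2.20 and 2.85 in iNKT17 of C57BL/6 mice. It was lower in iNKT17 than in iNKT1 by 1.86 (SE 0.31, adjusted p = 1.63e-04), and by 1.54, under the 3-fold limit, without the C57BL/6 iNKT17 replicate 1.

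Il1r1 had the most regions, and 22 of its 24 were higher in iNKT17 in each of the 4 comparisons with the other subsets. Its first promoter region (chr1:40224787-40225286) read 6.22 and 6.11 in C57BL/6 iNKT17, -0.42 and -1.65 in iNKT1 and -0.40 and -0.41 in iNKT2. The difference from iNKT1 was 7.20 (SE 0.40, adjusted p = 1.11e-08) and that from iNKT2 was 6.57 (adjusted p = 5.61e-08). The promoter region next to it (chr1:40225573-40226072) read 5.10 in both iNKT17 libraries and -1.65 or below in the other C57BL/6 libraries. The second annotated start (chr1:40266356-40266855), inside the gene, was nearer the accessible level in the other subsets, at 1.73 and 2.13 in iNKT1 and 2.69 and 2.16 in iNKT2, against 5.12 and 5.05 in iNKT17. The most open region of the locus, intronic (chr1:40271108-40271607), read 7.08 and 6.92 in iNKT17 and was accessible everywhere, with 4.71 and 4.56 in iNKT1 and 5.34 and 5.32 in iNKT2. The first start was thus below the accessible level outside iNKT17 cells, so it was tested only through them and had to be higher there. By contrast, the region 4451 bp past the second start was above that level in all groups.

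A further region of Il1r1, chosen after its values were seen (chr1:40243457-40243956), lay inside Il1r1 over an exon of the predicted gene Gm38070. It read 6.76 and 7.07 in iNKT17 libraries of C57BL/6 mice, 7.22 and 7.13 in those of Hivep3-/- mice, and between -3.12 and 1.60 in the other 8 libraries. An intronic region that was among the most different between iNKT17 and the other subsets (chr1:40235429-40235928) read 4.92 and 4.97 in C57BL/6 iNKT17 and the lowest value in both iNKT1 libraries. The 3 regions of the locus that were not called against 1 or both of the other subsets in C57BL/6 mice were also chosen after their values were seen. An intronic region (chr1:40283290-40283789) read 4.47 and 4.21 in iNKT17, 3.23 and 3.62 in iNKT1 and 1.48 and 0.21 in iNKT2. It was higher in iNKT17 than in iNKT2 by 3.49 (SE 0.35, adjusted p = 3.37e-06), while the difference of 0.91 from iNKT1 stayed under the 3-fold limit. The region over an exon near the 3′ end (chr1:40315399-40315898) read 3.71 and 4.16 in C57BL/6 iNKT17, 3.89 and 3.86 in iNKT2 and 1.11 and 1.28 in iNKT1, so the values of iNKT17 and iNKT2 overlapped, with a difference of 0.06 (SE 0.31, adjusted p = 0.889) between them. The promoter of the neighbouring gene Il1rl2 (chr1:40324763-40325262), which encodes the receptor for IL-36, read between 4.06 and 4.57 in all 12 libraries.

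**Figure D4:**
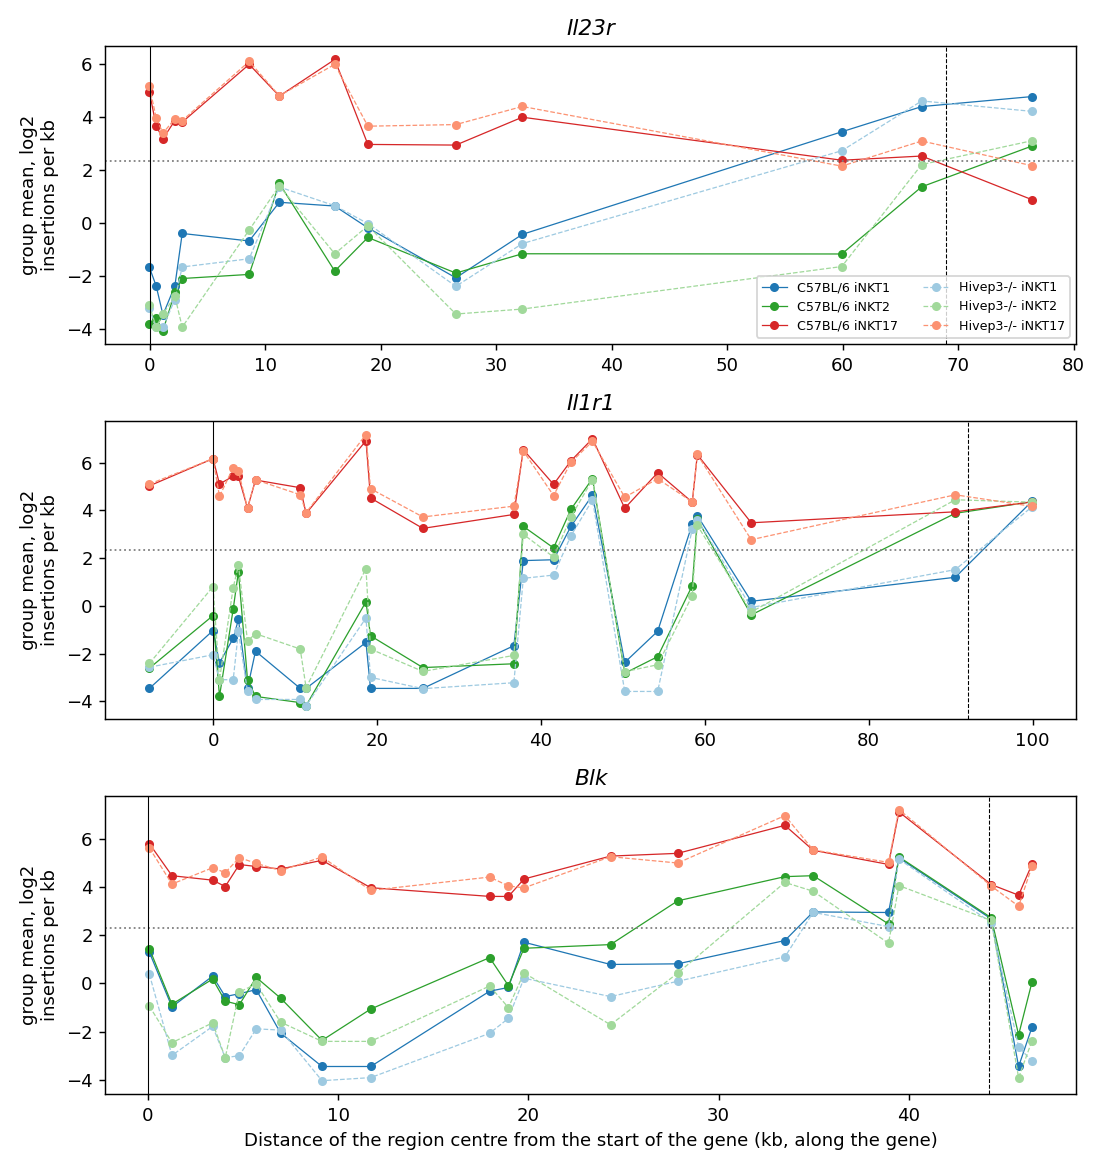
Group mean accessibility (log2 normalized insertions per kb) of each region of Il23r, Il1r1 and Blk against the distance of its centre from the start of the gene, in kb along the gene; solid lines join C57BL/6 and dashed lines Hivep3-/- groups, the vertical lines mark the start (solid) and end (dashed) of the gene and the dotted line the accessible level. iNKT17 lies highest at most regions, but not at the 3′ end of Il23r, where iNKT1 does, nor beyond the 3′ end of Il1r1, where the groups meet.

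At Il17re the 3 promoter regions were higher in iNKT17 than in the other subsets and the region near the 3′ end was not called. The region over the start (chr6:113458553-113459052) read 5.45 and 5.32 in C57BL/6 iNKT17, 0.67 and 0.91 in iNKT1 and 1.55 and 1.23 in iNKT2. It exceeded iNKT1 24.2-fold (adjusted p = 2.63e-08) and iNKT2 15.96-fold (adjusted p = 1.72e-07). Outside iNKT17 it was below the accessible level, so it was tested only through iNKT17 and had to be higher there. The flanking promoter regions were lower and also called in all 4 comparisons, with 4.50 and 4.40 at chr6:113457906-113458405 and 3.37 and 3.16 at chr6:113459797-113460296 in C57BL/6 iNKT17. The 3′ region (chr6:113469011-113469510), 1917 bp from the start of the neighbour Il17rc, read between 4.15 and 4.86 in all 12 libraries.

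Blk had 21 regions, all of them accessible in iNKT17 cells, compared with 4 in iNKT1 and 6 in iNKT2 of C57BL/6 mice. Its promoter (chr14:63416704-63417203) read 5.81 in both C57BL/6 iNKT17 libraries, 1.20 and 1.39 in iNKT1 and 1.51 and 1.39 in iNKT2, differences of 4.52 and 4.36 (SE 0.24, adjusted p = 8.09e-09 and 3.04e-08). That promoter was below the accessible level in iNKT1 and iNKT2, so it was tested only through iNKT17 and had to be higher there. The region with the largest difference in C57BL/6 mice (chr14:63407632-63408131, intronic) read 4.99 and 5.25 in iNKT17, -3.02 and -1.72 in iNKT2 and the lowest value in both iNKT1 libraries. The most open region (chr14:63377311-63377810), 893 bp from an internal start, was accessible in every group, with 7.06 and 7.21 in iNKT17, 5.27 and 5.17 in iNKT1 and 5.30 and 5.23 in iNKT2 of C57BL/6 mice. The iNKT17 level there was 3.77-fold that of iNKT1 and 3.66-fold that of iNKT2. An intergenic region beyond the 3′ end (chr14:63371021-63371520) had 3.05 to 3.78 in the 4 iNKT17 libraries and -1.59 or below in all others.

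At Sdc1, the gene of the sorting marker, 8 of the 10 regions were higher in C57BL/6 iNKT17 than in iNKT1 cells. Against iNKT2 cells 8 were higher as well. The gate and the subset cannot be told apart at this locus. The region over the start (chr12:8771101-8771600) was accessible in all groups, with 6.34 and 6.15 in iNKT17, 3.46 and 3.64 in iNKT1 and 3.996 and 3.61 in iNKT2 of C57BL/6 mice. The larger contrast was in an intron (chr12:8786386-8786885), at 6.59 and 6.55 against 1.43 and 0.71 in iNKT1 and 1.51 and 1.57 in iNKT2. The promoter region at chr12:8771967-8772466 stayed under 3-fold in all 4 comparisons, with differences of 0.69 to 1.40. That at chr12:8772627-8773126 exceeded iNKT2 by 1.64 in C57BL/6 mice, a call lost without the C57BL/6 iNKT2 replicate 1 (1.30). An intronic region with one of the largest differences of the locus (chr12:8776174-8776673) read 3.13 and 3.17 in C57BL/6 iNKT17 and -1.72 or below in the other C57BL/6 libraries.

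Tmem176a and Tmem176b lie head to head and share a promoter region (chr6:48841188-48841687). It read 4.80 and 4.89 in C57BL/6 iNKT17, 2.61 and 2.56 in iNKT1 and 1.81 and 1.39 in iNKT2, so iNKT1 was intermediate. The fold over iNKT1 was 4.80 (adjusted p = 8.12e-07) and over iNKT2 9.51 (adjusted p = 7.23e-08). The region of the last exon of Tmem176a (chr6:48846729-48847228) showed the same order more strongly, with 5.27 and 5.39 in iNKT17, 2.45 and 2.62 in iNKT1 and -0.61 and 0.51 in iNKT2. In Hivep3-/- mice it read 5.47 and 5.36, 2.77 and 2.90, and -0.61 and -0.22. The third region, intergenic, counted for Tmem176b alone and chosen after its values were seen (chr6:48829687-48830186), read 3.55 and 3.59 in C57BL/6 iNKT17, 3.43 and 3.40 in iNKT1 and 1.60 and 2.07 in iNKT2. It was higher in iNKT17 than in iNKT2 by 1.74 (SE 0.23, adjusted p = 3.20e-05), and the difference of 0.16 from iNKT1 was not called (adjusted p = 0.595).

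Between iNKT1 and iNKT2 cells, where only 27 regions could be tested in C57BL/6 mice, 9 were called, 5 higher and 4 lower in iNKT1 (background 16.0%, with 7.33% higher and 8.71% lower). In Hivep3-/- mice 8 of 25 were called, 5 higher and 3 lower (17.3%, with 8.77% and 8.54%). Of these, 4 of the higher and 2 of the lower regions were called in both genotypes. Higher in iNKT1 in both were the 3′ intronic region of Il23r given above, an exon of Il23r, the Il1r1 intron at chr1:40283290-40283789 and the last exon of Tmem176a. The Il23r exon (chr6:67431683-67432182), chosen after its values were seen, read 3.61 and 3.26 in C57BL/6 iNKT1 and -0.61 and -1.72 in iNKT2, a difference of 4.60 (SE 0.57, adjusted p = 2.16e-05). Lower in iNKT1 in both were the region near the 3′ end of Il1r1 read above and an intronic region of Blk (chr14:63383306-63383805), chosen after its values were seen, which read 1.67 and 1.90 in iNKT1, 4.37 and 4.52 in iNKT2 and 6.40 and 6.76 in iNKT17 of C57BL/6 mice. The downstream Il17a region was lower in C57BL/6 iNKT1 than in iNKT2 by 3.23 (SE 0.11, adjusted p = 4.10e-09) and in Hivep3-/- mice by 1.21, below the 3-fold limit. The numbers of regions called between iNKT1 and iNKT2 rest on the filter: with every region tested they were 20 (9 higher, 11 lower) in C57BL/6 mice, against 16.6% of all regions (7.77% higher, 8.86% lower), and 26 (8 higher, 18 lower) in Hivep3-/- mice, against 17.8% (8.77% higher, 9.03% lower), so the direction of the majority depended on regions below the accessible level.

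Between the genotypes no region of these genes was called in iNKT17 cells, and a single one was called in the other subsets. In iNKT17 cells 81 regions were tested, and limma called 0, with 2 at an unadjusted p under 0.05 (15.8% of all regions tested) and a lowest adjusted p of 0.197, while 0.271% of 54311 regions were called (0.133% higher, 0.138% lower). The differences ran from -0.71 to 0.80 on the log2 scale, with a median SE of 0.48. In iNKT1, 0 of 21 tested regions were called (6 at an unadjusted p under 0.05, against 17.8% of all regions tested) against 1.15% of all regions (0.890% higher, 0.264% lower). With every region tested, 11 of the 82 were called, 2 higher and 9 lower, against 1.98% of all regions (1.19% higher, 0.791% lower). In iNKT2, 1 of 21 was called, a lower one, against 1.68% of all regions (0.474% higher, 1.20% lower). With every region tested, 9 of the 82 were called, 3 higher and 6 lower, against 2.45% of all regions (0.945% higher, 1.51% lower). The regions added by this change were below the accessible level in both groups compared.

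The region called in iNKT2 was the Blk intron printed above (chr14:63388939-63389438). Its values were 3.30 and 3.57 in iNKT2 cells of C57BL/6 mice but 0.20 and 0.66 in those of Hivep3-/- mice, a fall of 8.04-fold (log2 difference -3.01, SE 0.31, adjusted p = 1.32e-04). In iNKT17 it was 5.38 and 5.44 in C57BL/6 and 4.98 and 5.04 in Hivep3-/- mice, a difference of -0.40 that was not called (adjusted p = 0.588). The most open Blk region (chr14:63377311-63377810) read 4.14 and 4.01 there against 5.30 and 5.23 in C57BL/6 iNKT2, a difference of -1.19 (SE 0.11, adjusted p = 7.27e-05) that is under the 3-fold limit. Without the filter, both Hivep3-/- iNKT2 libraries lay below both C57BL/6 ones at 14 of the 21 Blk regions and above them at 0, and in iNKT1 the numbers were 15 and 1. Over all regions of the table both libraries were lower at 25.6% in iNKT2 and 28.3% in iNKT1. In iNKT17 they were lower at 5 and higher at 6 of the Blk regions, against 22.3% and 21.8% of all regions. The locus level of Blk was 2.60 and 2.54 in C57BL/6 and 1.64 and 1.76 in Hivep3-/- iNKT2 libraries, beside 5.07 and 5.26 against 5.22 and 5.31 in iNKT17. Most of the iNKT1 and iNKT2 values at Blk are below the accessible level and 2 libraries per group were compared.

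**Figure D5:**
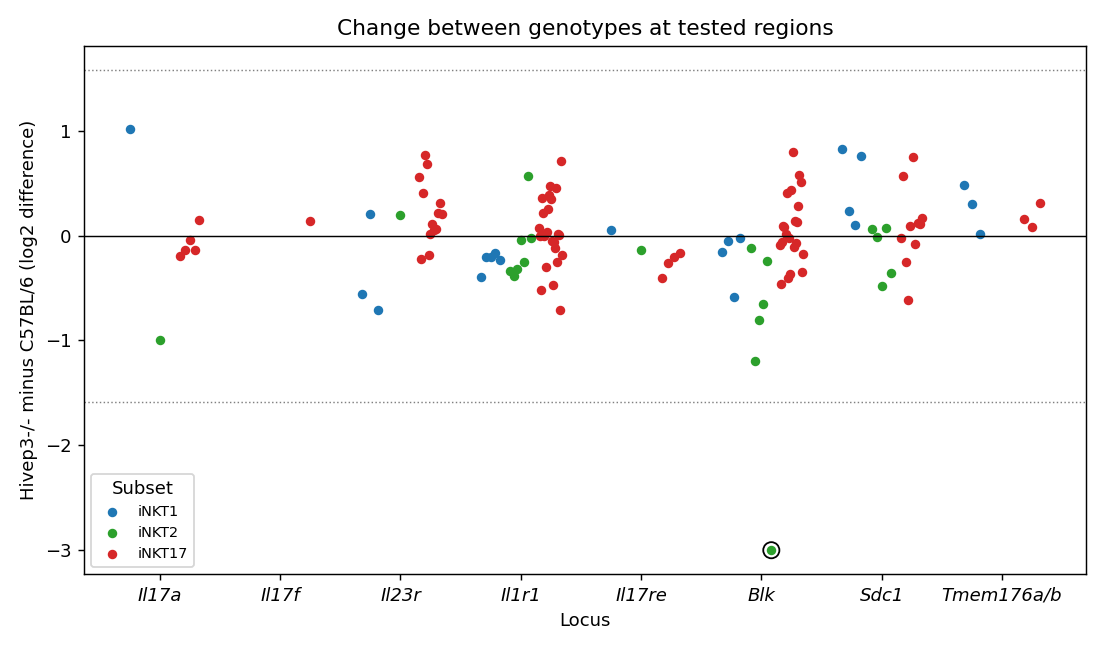
Difference between Hivep3-/- and C57BL/6 mice (log2) at every tested region of each locus, by subset; a point is a region, dotted lines mark 3-fold and the ring the 1 region called, in Blk in iNKT2 cells. The iNKT17 points lie between -0.71 and 0.80.

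At Il17a the difference between the genotypes had opposite signs in iNKT1 and iNKT2 cells, in both under the 3-fold limit. At the downstream region (chr1:20740462-20740961), iNKT1 libraries read 2.81 and 2.80 in C57BL/6 and 3.76 and 3.89 in Hivep3-/- mice, a difference of 1.02 (SE 0.11, adjusted p = 1.39e-04). In iNKT2 they read 6.09 and 5.98 in C57BL/6 and 5.01 and 5.06 in Hivep3-/- mice, a difference of -0.999 (SE 0.11, adjusted p = 1.61e-04). In iNKT17 they were 7.11 and 7.08 against 7.0 and 6.92 (-0.14, adjusted p = 0.599). In the iNKT1 and iNKT2 comparisons the groups did not overlap. The gap between iNKT2 and iNKT1 was 9.39-fold in C57BL/6 and 2.31-fold in Hivep3-/- mice.

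The change between genotypes in iNKT17 was then set against that in the other subsets in interaction terms, for which the regions had to be accessible in any of the 4 groups. Compared with iNKT1, 4 of 82 regions were called, 2 higher and 2 lower, against 1.42% of 60543 regions (0.372% higher, 1.05% lower), and 9 were called with the replicate numbers as a block. Compared with iNKT2, 3 were called, all higher and all in Blk, against 1.02% of 60297 regions (0.685% higher, 0.338% lower), and 4 with the replicate block. The Blk regions were the intron above (2.60, SE 0.43, adjusted p = 0.0137), a second intron (chr14:63392470-63392969, 3.31, SE 0.48, adjusted p = 0.00663) and the promoter (2.22, SE 0.34, adjusted p = 0.00951). In iNKT2 the second intron read 1.75 and 1.48 in C57BL/6 mice and -1.72 in both Hivep3-/- libraries, and in iNKT17 5.20 and 5.39 against 5.21 and 5.34. The promoter read 1.51 and 1.39 in C57BL/6 and -0.88 and -1.01 in Hivep3-/- iNKT2, and stayed between 5.63 and 5.81 in the 4 iNKT17 libraries. At the second intron and the promoter both iNKT2 groups were below the accessible level, so these regions were tested only through iNKT17 cells. The 3 Blk calls held in all fits that left out 1 library and were lost with a pseudocount of 5, that at the promoter also with a pseudocount of 1. The 4 calls against iNKT1, in Il17a, Blk and Sdc1, were at regions where both iNKT1 groups were below the accessible level. They were each lost in at least 4 of the 12 fits that left out a library and with pseudocounts of 1 and 5.

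Beyond the 9 genes, 25 other genes of the type 17 programme had 235 regions in the table. In C57BL/6 mice 49 of 218 tested were higher and 10 lower in iNKT17 than in iNKT1, against 10.8% and 9.72% of all regions, and 52 of 226 were higher and 16 lower than in iNKT2, against 8.49% and 7.72%. The median differences over these regions were 0.35 and 0.38 on the log2 scale. Il22, the gene of a cytokine of barrier immunity, had 3 and 2 of 3 regions higher, Ccr6 3 and 5 of 5 tested, and Serpinb1a, encoding a protease inhibitor, 3 and 5 of 5. By contrast Il12rb1, the partner chain of Il23r, had 0 of 9 regions called in either comparison, and Il1rap, the partner of Il1r1, 0 of 2. Il17rc, the IL-17 receptor chain next to Il17re, had 1 of 5 higher than in iNKT1. Il6ra had 7 of 21 regions lower than in iNKT2, and Stat3 4 of 9. Between genotypes 0 of 215 regions were called in iNKT17 with limma (39 at an unadjusted p under 0.05, against 15.8% of all regions tested).

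The pattern of the 9 loci over the 12 libraries was alike but not equal. Pearson's r between a locus level and the mean of the other 8 ran from 0.794 for Il17a to 0.993 for Sdc1, with 0.870 for Tmem176b, 0.885 for Il23r and 0.911 for Tmem176a. These are 12 libraries in 3 subsets, and such values largely reflect the gap between iNKT17 and the rest. Of 9998 other protein-coding genes with at least 3 regions, those most like the mean of the 9 were Adcy4 (r = 0.997), BC053393, Tmem232, Fam129a, Cryba4, Plxnd1, Plb1, Snu13, Zfp57 and Zfp462 (r = 0.992). Their levels in iNKT17 exceeded those in the other subsets by 0.56 for Fam129a to 8.23 for BC053393 on the log2 scale.

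The regions were more often inside genes than the table as a whole. Promoters made up 24.4% of the 82 and 38.1% of all regions, exons and introns 63.4% and 39.1%, and intergenic regions 12.2% and 22.8%, which the choice of gene bodies favours. The median GC content was 46.9% against 50.0%. The core site AGGTCA was present in 34 of the 82 regions (41.5%, against 27.7% of all regions of this length). For TGACTCA, the site of bZIP factors, the shares were 14.6% of the 82 regions and 11.5% of all regions. STAT sites, searched as TTCNNNGAA, were found in 14.6% and 13.4%. Runt sites, searched as AACCACA, were in 13.4% and 17.4%, and the T-box letters AGGTGTGA in 2.44% and 2.91%. For GATA factors the letters AGATAA were in 20.7% and 20.6%, and the NF-kB consensus was matched in 14.6% and 8.60%. Both strands were searched. Regions of 1 locus are neighbours and not independent, and a match is a description of letters, not of binding.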

How the data were processed

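Omni-ATAC-seq libraries of 12 sorted samples were analysed, 2 for each of 3 iNKT subsets and 2 genotypes. According to the study's methods, the authors trimmed reads with Trimmomatic (version 0.39 in the submitters' processing notes), aligned them to mm10, merged the peaks of all replicates into 500 bp regions, counted insertions and normalised them with voom, and deposited a log2 table. Its unit, log2 normalized insertions per kb, was read from those methods and from the size of the values, and the accessible level of 5 rests on it. Linear library sums in that table differ by at most 0.208%, so read depth cannot be recovered from it, and peaks called in any library put a region into the table. Peaks were called on subsampled reads by the authors, which limits weak regions.

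From the deposited log2 values, a 6-group model was fitted to all 63309 regions with limma (3.58.1, R 4.3.3; empirical Bayes with a variance trend, 6 residual and 7.173 prior degrees of freedom). A region was tested where a compared group had a linear mean of at least 5, and called at an adjusted p (Benjamini-Hochberg) below 0.1 and at least 3-fold. The steps were tested on simulated data. p-values rest on the spread between the 2 libraries of a group, from pooled thymi. That spread is shared over all 6 groups and moderated over all regions by empirical Bayes. Locus levels, motifs and sequences were computed in Python (3.11.15) from GRCm38.p6 and GENCODE vM21.

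The genes and lists were chosen with earlier results of these data known. Of each locus were named the regions within 1000 bp of a start, the region with the highest mean, the 2 regions with the largest difference from the other subsets, those called between genotypes or in an interaction, and those lower in iNKT17; others are said to be chosen after their values were seen. Sample titles number mice, while the methods describe pooled thymi and subsets pooled for the transposition, so what a shared number marks is unclear. The model had no pairing, and a replicate block was fitted as an alternative only. The differences between replicates correlated at 0.163 to 0.237 between subsets of a genotype and at 0.143 to 0.242 between other pairs of groups. Other alternatives were pseudocounts, filters, renewed quantile normalization, a 2-fold threshold, no variance trend, fits to the compared libraries alone, gene bodies without flanks and leaving out each library. Some values of the marker lists, the type 17 list and the motif search are not reported here.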

Additional observations from a re-analysis of the deposited data

Results flagged for a closer look

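In 7 regions the difference between Hivep3-/- and C57BL/6 mice in iNKT17 cells departed from that in another subset by a test of the interaction itself. At Blk the excess over iNKT2 was 2.60 on the log2 scale at chr14:63388939-63389438, 3.31 at chr14:63392470-63392969 and 2.22 at the promoter (chr14:63416704-63417203). There the Hivep3-/- iNKT2 libraries lay below those of C57BL/6 iNKT2, and group means in iNKT17 cells differed by at most 0.40. At chr14:63392470-63392969 and the promoter both iNKT2 groups were below the accessible level, so these regions were tested only through iNKT17 cells.

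Against iNKT1, the interaction was 2.56 at an intron of Blk (chr14:63398823-63399322, SE 0.69, adjusted p = 0.0828 with limma), where iNKT1 libraries read 0.36 and -1.01 in C57BL/6 and -1.72 and -2.43 in Hivep3-/- mice. It was 1.80 at an intron of Sdc1 (chr12:8786386-8786885), where they read 1.43 and 0.71, then -0.24 and -0.97. At Il17a it was -2.29 upstream (chr1:20725552-20726051) and -2.92 downstream (chr1:20738439-20738938). In both of these, the C57BL/6 iNKT1 libraries were at their lowest value while the Hivep3-/- libraries read -0.78 and -1.94 upstream and -0.10 and -1.06 downstream, all below the accessible level. At all 4 regions both iNKT1 groups were below the accessible level, so the regions were tested only through iNKT17 cells. Each of these 4 calls was lost in 4 to 9 of the 12 fits that left out a library.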

How the results depend on the processing

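The numbers of regions that differed between iNKT17 and the other subsets kept their direction under every alternative run, and ranged over the fits without 1 library from 73 to 74 and 70 to 72 in C57BL/6 mice (against iNKT1 and iNKT2) and from 72 to 73 and 71 to 73 in Hivep3-/- mice. With a pseudocount of 5 they were 57, 54, 62 and 60. Between iNKT1 and iNKT2, 20 and 26 regions were called with no filter and 17 and 23 with a filter on the mean over all libraries, mostly lower in iNKT1, where the main counts (9 and 8) were mostly higher; the pseudocount of 5 gave 3 and 3, and a 2-fold threshold 13 in C57BL/6 mice, again mostly lower. Without 1 library these counts were 9 to 10 and 8.

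Between genotypes, either change of filter gave 11 calls in iNKT1 and 9 in iNKT2, the 2-fold threshold 1 and 2, the pseudocount of 5 gave 0 in iNKT2, and leaving out a library 0 and 1. In iNKT17 the count was 0 under every alternative. The interaction with iNKT1 (4 regions) had 0 calls with pseudocounts of 1 and 5, 7 at 2-fold, 9 with either replicate block, 2 without flanks, and 0 to 7 without 1 library. That with iNKT2 (3 regions) had 0 with a pseudocount of 5, 6 with only the compared libraries, 4 with the replicate block, and 3 to 4 without 1 library. The replicate block changed no other count of calls. The cause of these shifts was not tested. At the exon of Il17re (chr6:113469011-113469510) the uncalled difference from iNKT1 changed sign among the fits without 1 library, from -0.0354 to 0.0022. Of 3039 values for single regions, 2951 kept their direction and side of the threshold, 79 lost it, 8 gained it and 1 reversed.

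Depth is unknown, each group has 2 libraries, and values near a library's lowest value carry little information, which limits what can be said of weak regions.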

Other observations

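With no filter on level, the regions at which both libraries of Hivep3-/- mice lay on one side of both C57BL/6 libraries were counted. In iNKT1 cells both were lower at 34 (41.5%) and higher at 15 (18.3%) of the 82 regions, against 28.3% and 25.2% of all regions. In iNKT2 cells the numbers were 25 (30.5%) and 16 (19.5%), against 25.6% and 27.2%, and in iNKT17 cells 17 (20.7%) and 24 (29.3%), against 22.3% and 21.8%. No comparison of these shares between subsets was tested. By locus, Il1r1 regions were lower at 9 and higher at 0 of 24 in iNKT1, and lower at 2 and higher at 9 in iNKT2. Il17a regions were higher at 4 of 5 in iNKT1 and lower at 3 of 5 in iNKT2. Regions of a locus are neighbours, most of these values lie below the accessible level, and no test was made of these counts.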
